A study of Homo sapiens with 12 samples.

Results

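Transcript levels of 8 enzymes that inactivate or activate androgens were examined in human prostate cancer cells exposed to inhibitors of the histone demethylases KDM1A and KDM7A. The 8 genes are UGT2B10, UGT2B11, UGT2B15, UGT2B17, UGT2B28, SRD5A1, SRD5A3 and AKR1C3. They were chosen by name for their place in androgen metabolism, with earlier results of these data already known. They were 8 of the 60675 genes in each deposited count table. All 8 were found. In C4-2 cells each inhibitor alone raised most of the UGT2B transcripts and both steroid reductases. Namoline raised 7 of the 8 enzymes and TCE-5002 raised 5, against 18.7% and 19.9% of all genes higher at adjusted p under 0.05. The rises of SRD5A3 with either inhibitor, and of SRD5A1 and UGT2B15 with namoline, depended on single libraries. The inhibitors together left 6 of the 8 below the level with androgen alone, against 25.6% of all genes lower by the same test. Only UGT2B15 fell at least 2-fold, and the falls of UGT2B11, UGT2B17 and UGT2B28 depended on single libraries.

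The study asked how KDM1A and KDM7A act together on androgen signalling. RNA was sequenced from LNCaP, an androgen-dependent line, and from LNCaP:C4-2 (C4-2), its castration-resistant derivative. Each of the 6 groups held 2 libraries, described in the methods as biological replicates. All 12 libraries came from cells in charcoal-stripped serum given the synthetic androgen R1881 at 1 nM, with treatment for 72 h. The C4-2 groups were R1881 with DMSO vehicle, R1881 with namoline, R1881 with TCE-5002, and R1881 with both inhibitors (combination). The LNCaP groups were R1881 with vehicle and the combination. Namoline, which inhibits KDM1A, was used at 50 µM. TCE-5002 inhibits KDM7A and, as the paper states, also targets KDM7B (PHF8) and KDM2A. Its dose is given as 100 µM in the series text and as lower in the methods, so the dose behind its values is uncertain. No library without R1881 was analysed here, so none of the values measures the response to androgen itself.

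Circulating and locally made androgens are kept in balance inside prostate cells by enzymes that work against each other. Steroid 5-alpha-reductases such as SRD5A1 convert testosterone to dihydrotestosterone, the more potent androgen, and AKR1C3 converts androstenedione to testosterone. UDP-glucuronosyltransferases of the UGT2B family attach glucuronic acid to androgens and their metabolites, which makes them water soluble and ends their activity. UGT2B15 and UGT2B17 are the family members best known for this in the prostate, and their expression in LNCaP cells is known to be repressed by androgen. UGT2B28 also conjugates androgens, UGT2B10 acts mainly on amines such as nicotine, and UGT2B11 has few established substrates. SRD5A3 is best known for making dolichol, the lipid carrier of protein N-glycosylation.

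The 5 UGT2B genes lie in a cluster on chromosome 4 (GRCh38, coordinates of the deposited tables). In order they are UGT2B17 (chr4:68537184-68568527, minus strand), UGT2B15 (chr4:68537413-68670628, minus), UGT2B10 (chr4:68815993-68831196, plus), UGT2B11 (chr4:69004618-69214731, minus) and UGT2B28 (chr4:69280487-69423402, plus). SRD5A3 (chr4:55346109-55373096, plus) is on the same chromosome outside the cluster. SRD5A1 (chr5:6633343-6674386, plus) and AKR1C3 (chr10:5035354-5107686, plus) are elsewhere. All 8 are protein-coding.

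The UGT2B copies are alike enough that the likeness bears on how they are counted. Over the whole coding sequence of the GENCODE 29 transcripts, UGT2B11 and UGT2B28 were 97.0% identical and UGT2B15 and UGT2B17 were 96.5% identical. UGT2B10 was 94.8% identical to UGT2B11 and 84.9% to UGT2B15. The last 120 coding bases before the stop codon show these relations, with bases that differ from UGT2B15 in capitals.
UGT2B15: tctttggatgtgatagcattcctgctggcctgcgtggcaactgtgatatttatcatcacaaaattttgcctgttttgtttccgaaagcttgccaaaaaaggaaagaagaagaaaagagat
UGT2B17: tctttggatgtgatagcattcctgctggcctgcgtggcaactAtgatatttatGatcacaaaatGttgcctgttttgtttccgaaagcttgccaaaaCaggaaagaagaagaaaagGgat
UGT2B28: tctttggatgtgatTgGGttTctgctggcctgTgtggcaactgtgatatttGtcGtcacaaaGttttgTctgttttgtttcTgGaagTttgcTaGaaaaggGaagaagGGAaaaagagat
UGT2B11: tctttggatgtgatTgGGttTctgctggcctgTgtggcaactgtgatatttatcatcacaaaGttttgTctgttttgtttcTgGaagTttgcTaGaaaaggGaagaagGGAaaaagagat
UGT2B10: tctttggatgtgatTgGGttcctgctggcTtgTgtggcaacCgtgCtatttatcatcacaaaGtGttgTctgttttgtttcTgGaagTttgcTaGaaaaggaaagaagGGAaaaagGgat
In this stretch UGT2B17 differed from UGT2B15 at 5 bases, UGT2B11 at 16, UGT2B28 at 18 and UGT2B10 at 19. Of all 150-base windows, the read length given in the methods, 4.88% of those in the UGT2B15 and UGT2B17 transcripts were shared between these 2 genes. For UGT2B11 1.39% of the windows were shared with the pseudogene UGT2B25P, for AKR1C3 1.33% with AKR1C2, and for UGT2B10, UGT2B28, SRD5A1 and SRD5A3 none was shared with another gene. UGT2B15 and UGT2B17 also overlap by 114 exon bases on 1 strand in the deposited annotation, and UGT2B28 overlaps UGT2B25P by 498. Fragments that fell on a shared stretch were not counted, so the levels of UGT2B11, UGT2B15, UGT2B17 and UGT2B28 may be understated. Fragments assigned to the wrong copy could also raise a level, and this was not measured. Antisense genes overlap UGT2B11 by 418 exon bases and SRD5A3 by 198 (SRD5A3-AS1), and since strand was not used in counting, reads there cannot be told apart. These antisense genes held 304 and 255 counts over all libraries, against 34760 and 5464 for the enzymes.

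The 250 bases before the transcription start of UGT2B15, UGT2B11 and UGT2B10 (RefSeq, GRCh38.p14) are printed because TCE-5002 raised UGT2B15 and UGT2B10 at least 2-fold while their neighbour UGT2B11 was not called. Capitals mark 2 hexamers searched on both strands, AGAACA, the core of an androgen response element, and TAAACA, a core bound by forkhead factors such as FOXA1.
UGT2B15 (chr4:68670653-68670902, minus): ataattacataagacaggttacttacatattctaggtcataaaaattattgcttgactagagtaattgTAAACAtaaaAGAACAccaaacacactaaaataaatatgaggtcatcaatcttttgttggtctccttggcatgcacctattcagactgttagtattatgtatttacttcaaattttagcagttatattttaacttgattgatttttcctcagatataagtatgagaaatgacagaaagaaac
UGT2B11 (chr4:69214749-69214998, minus): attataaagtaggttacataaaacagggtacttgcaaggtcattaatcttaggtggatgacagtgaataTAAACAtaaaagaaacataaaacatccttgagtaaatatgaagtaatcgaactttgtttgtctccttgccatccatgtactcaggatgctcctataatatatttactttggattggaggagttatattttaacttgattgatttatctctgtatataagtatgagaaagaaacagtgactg
UGT2B10 (chr4:68815744-68815993, plus): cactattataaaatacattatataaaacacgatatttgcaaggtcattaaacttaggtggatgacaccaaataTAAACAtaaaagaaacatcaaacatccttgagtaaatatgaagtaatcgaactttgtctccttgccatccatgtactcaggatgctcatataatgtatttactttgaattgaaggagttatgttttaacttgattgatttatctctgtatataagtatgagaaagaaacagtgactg
The promoters of UGT2B10 and UGT2B11 were 90.2% identical, and those of UGT2B11 and UGT2B15 70.0%. Each of the 3 held TAAACA once, and UGT2B15 alone of the 3 held AGAACA, also once. Among all 35116 promoters of this length in the table, 10.99% held TAAACA and 12.4% held AGAACA on either strand. The 3 printed promoters are alike in sequence and only 28.4% to 31.2% of their bases are G or C. The share among promoters of like base composition was not counted. Neither hexamer was found in the promoters of SRD5A1, SRD5A3 or AKR1C3 (the 2 starts listed for the last). Such matches are letters only and were not tested for binding. Promoter sequences of UGT2B17, which TCE-5002 raised most, and of UGT2B28, which did not pass with TCE-5002, were not available.

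Library totals ran from 14791602 to 20690819 counts, and levels are given as counts per 1000000 library counts (CPM), scaled by TMM over all 12 libraries. The labels of the LNCaP libraries go partly against their contents. All 10 prostate luminal markers (KLK2, KLK3 and others) were above 1 CPM in every group. In the R1881 libraries labelled LNCaP, however, 8 mesenchymal markers summed to 800–889 CPM against 79.9–80.5 in C4-2, and 5 neuroendocrine markers to 136–138 against 3.33–3.37. These are called libraries labelled LNCaP below. The count file of combination replicate 1 in that set names namoline but not TCE-5002 in its header, although its title states both. Its log2 CPM correlated with replicate 2 at r = 0.989, and none of 10064 genes above 10 CPM differed 2-fold between them. Results that rest on it are given with and without it. The C4-2 TCE-5002 replicates were the farthest apart, with 51 of 9897 genes above 10 CPM differing 2-fold, against 0 to 4 in the other groups. Markers of hepatocytes, the cells richest in UGT2B enzymes, summed to at most 2.65 CPM in any library.

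**Figure D1:**
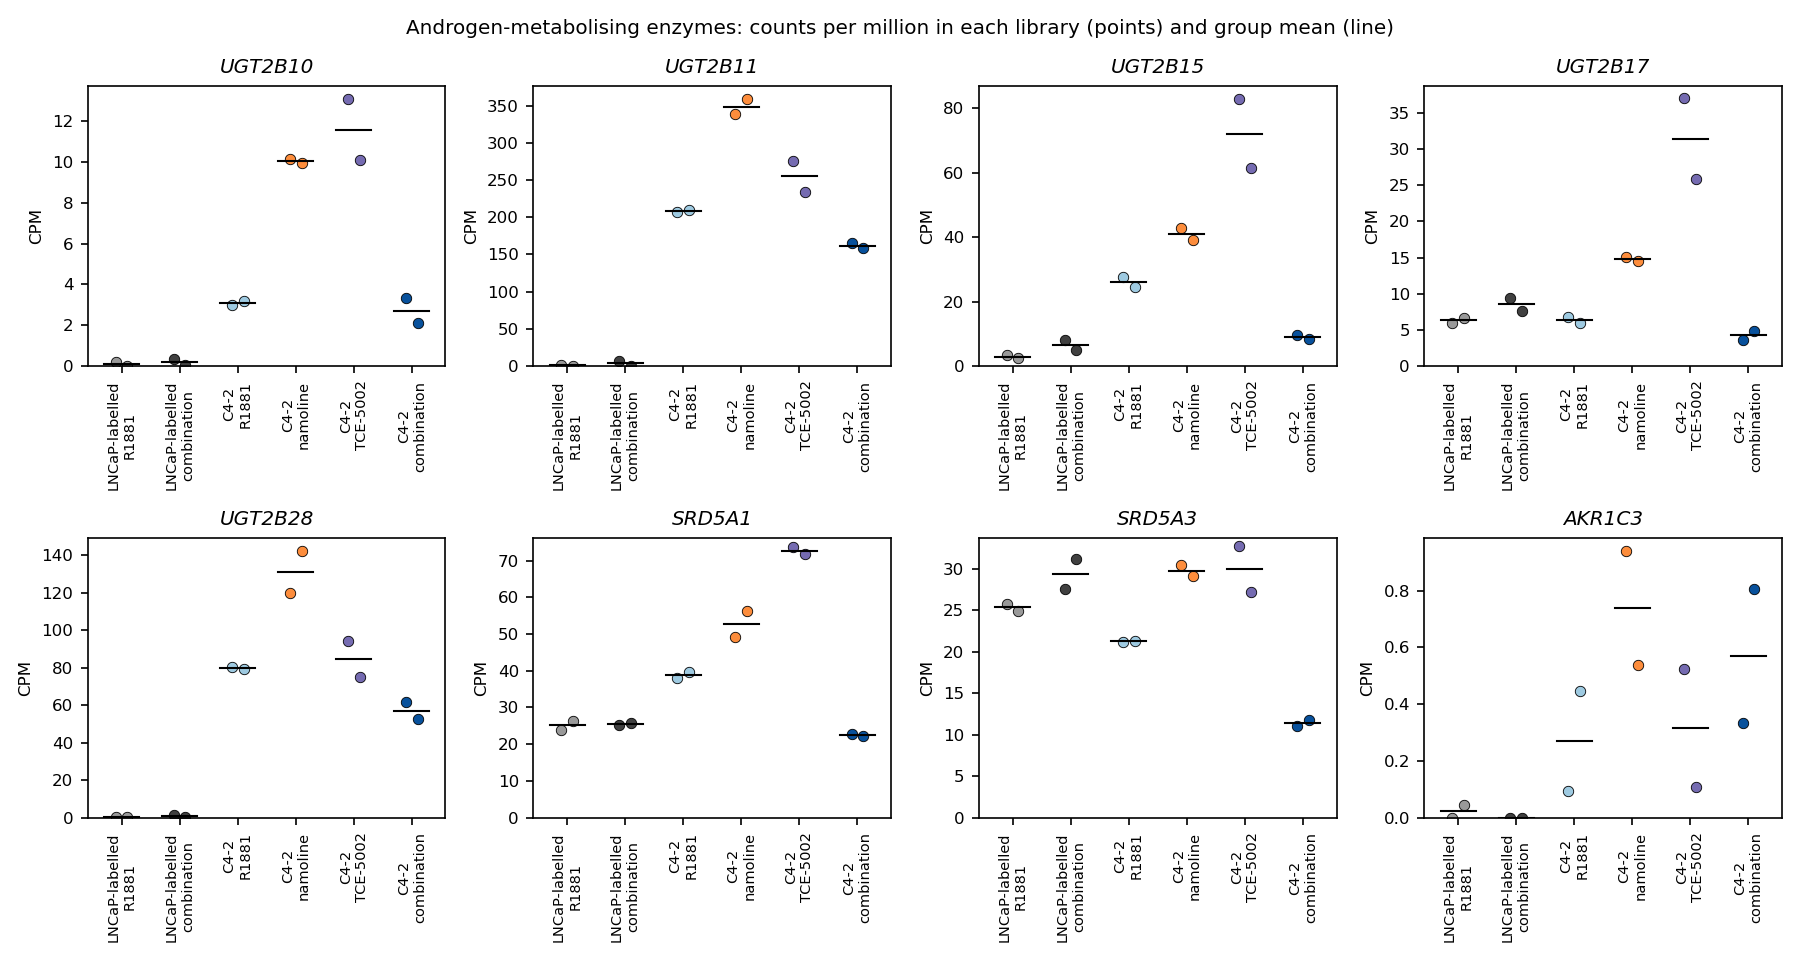
CPM of the 8 enzymes in each library, by group, on linear axes that start at 0. Points are the 2 libraries of a group and lines are group means. Of the C4-2 groups, UGT2B11 and UGT2B28 stand highest with namoline, while UGT2B15, UGT2B17 and SRD5A1 stand highest with TCE-5002.

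UGT2B15 and UGT2B17, the androgen-conjugating pair, were highest with TCE-5002 in C4-2. UGT2B15 measured 27.6 and 24.4 CPM with R1881, 43.0 and 39.1 with namoline, 82.8 and 61.3 with TCE-5002, and 9.69 and 8.50 with the combination. No 2 of these 4 groups overlapped, and the combination was the lowest. Here and below, separation of groups of 2 libraries is a description, and its share among all genes was not counted. UGT2B17 measured 6.83 and 5.89 CPM with R1881, 15.1 and 14.5 with namoline, 37.0 and 25.8 with TCE-5002, and 3.60 and 4.90 with the combination. Its order was the same, also without overlap. In the plot of levels by library both genes form a peak at TCE-5002 and a low point at the combination. In bulk RNA, fewer expressing cells and less RNA per cell cannot be told apart.

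UGT2B10 stood with this pair in its response to TCE-5002, although in coding sequence it is closer to UGT2B11. It measured 2.99 and 3.20 CPM with R1881, 10.2 and 9.95 with namoline, 13.1 and 10.1 with TCE-5002, and 3.32 and 2.11 with the combination. The namoline and TCE-5002 libraries overlapped each other and lay above the rest, and the R1881 libraries lay within the range of the combination.

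UGT2B11 and UGT2B28, the most similar pair in coding sequence, were the most abundant UGT2B transcripts in C4-2 and were highest with namoline. UGT2B11 measured 208 and 210 CPM with R1881, 338 and 358 with namoline, 276 and 234 with TCE-5002, and 165 and 158 with the combination. The 4 groups did not overlap. UGT2B28 measured 80.2 and 79.5 CPM with R1881, 120 and 142 with namoline, 94.5 and 75.2 with TCE-5002, and 61.7 and 52.5 with the combination. Here the TCE-5002 libraries lay on either side of those with R1881.

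The reductases were expressed at moderate levels. SRD5A1 measured 38.1 and 39.5 CPM with R1881, 49.1 and 56.3 with namoline, 73.7 and 71.7 with TCE-5002, and 22.7 and 22.2 with the combination, again 4 separate ranges. SRD5A3 measured 21.2 and 21.4 CPM with R1881, 30.5 and 29.1 with namoline, 32.7 and 27.2 with TCE-5002, and 11.1 and 11.7 with the combination. The single inhibitors overlapped each other for SRD5A3, and R1881 and the combination were separate below them. AKR1C3, which makes testosterone, was near the limit of detection. Its counts were 2 and 7 with R1881, 16 and 9 with namoline, 10 and 2 with TCE-5002, and 6 and 13 with the combination, at most 0.940 CPM in any library.

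Namoline alone raised 7 of the 8 enzymes in C4-2 (adjusted p under 0.05 in edgeR's quasi-likelihood test), against 18.7% of all 17702 genes tested that were higher by the same rule. The increase was at least 2-fold, the further condition for a call used below, for UGT2B10 and UGT2B17, against 5.17% of all genes called higher. UGT2B10 rose by 1.68 ± 0.23 on the log2 scale (SE, n = 2 and 2, adjusted p = 6.53e-05) and UGT2B17 by 1.19 ± 0.20 (adjusted p = 0.000378). The smaller increases were 0.72 ± 0.11 for UGT2B11, 0.69 ± 0.13 for UGT2B28, 0.64 ± 0.15 for UGT2B15, 0.46 ± 0.14 for SRD5A3 and 0.42 ± 0.12 for SRD5A1. AKR1C3 differed by 1.53 ± 0.78, which did not pass (adjusted p = 0.144). The median over the 8 was 0.71, beside 0.00 over all genes tested. Without C4-2 R1881 replicate 2 the count was 4 in place of 7, as SRD5A1, SRD5A3 and UGT2B15 then had adjusted p-values of 0.0693, 0.0872 and 0.0566. SRD5A3 also missed the threshold without any other of the 4 libraries compared (adjusted p from 0.0742 to 0.127). SRD5A1 missed it without R1881 replicate 1 (0.131) or namoline replicate 2 (0.189) as well, and UGT2B15 without namoline replicate 1 (0.0652).

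TCE-5002 alone raised 5 of the 8 in C4-2, against 19.9% of all genes higher by adjusted p, and 3 by at least 2-fold, against 5.04% of all genes. UGT2B17 rose by 2.27 ± 0.20 (adjusted p = 1.70e-06), UGT2B10 by 1.89 ± 0.23 (adjusted p = 2.76e-05) and UGT2B15 by 1.45 ± 0.15 (adjusted p = 8.95e-06). SRD5A1 rose by 0.88 ± 0.12 (adjusted p = 6.16e-05) and SRD5A3 by 0.47 ± 0.14 (adjusted p = 0.0137, and 0.107 and 0.0804 without R1881 replicate 1 or 2). UGT2B11 differed by 0.27 ± 0.11 (adjusted p = 0.0723) and UGT2B28 by 0.07 ± 0.13 (adjusted p = 0.735), with 95% intervals of 0.05 to 0.48 and −0.20 to 0.33. Without TCE-5002 replicate 2, UGT2B11 passed the test at 0.38 (adjusted p = 0.00233), and it passed over all libraries with a correction for GC content, at 0.39 (adjusted p = 0.000620). The intervals of UGT2B10 (1.44 to 2.33), UGT2B15 (1.15 to 1.74) and UGT2B17 (1.89 to 2.66) lay above both. The median of the 8 was 0.68, beside 0.00 over all genes.

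The combination lowered 6 of the 8 in C4-2, against 25.6% of all genes lower by adjusted p. UGT2B15 was the only enzyme called at 2-fold, against 12.8% of all genes called lower, and fell by 1.53 ± 0.17 on the log2 scale (adjusted p = 4.87e-06). SRD5A3 fell by 0.91 ± 0.14 (adjusted p = 0.000119) and SRD5A1 fell by 0.80 ± 0.12 (adjusted p = 9.33e-05). UGT2B17 fell by 0.61 ± 0.22 (adjusted p = 0.0344), UGT2B28 fell by 0.49 ± 0.14 (adjusted p = 0.00738) and UGT2B11 fell by 0.38 ± 0.11 (adjusted p = 0.0105). These last 3 depended on single libraries. UGT2B17 did not pass without R1881 replicate 1 (adjusted p = 0.191) or combination replicate 1 (0.263), nor with DESeq2 (0.0537). UGT2B11 did not pass without R1881 replicate 1 (adjusted p = 0.0650), R1881 replicate 2 (0.0761) or combination replicate 2 (0.147), and UGT2B28 without combination replicate 2 (0.149). UGT2B10 differed by −0.18 ± 0.26 (adjusted p = 0.578) and AKR1C3 by 1.14 ± 0.81 (adjusted p = 0.260). The median of the 8 was −0.55, beside −0.03 over all genes.

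**Figure D2:**
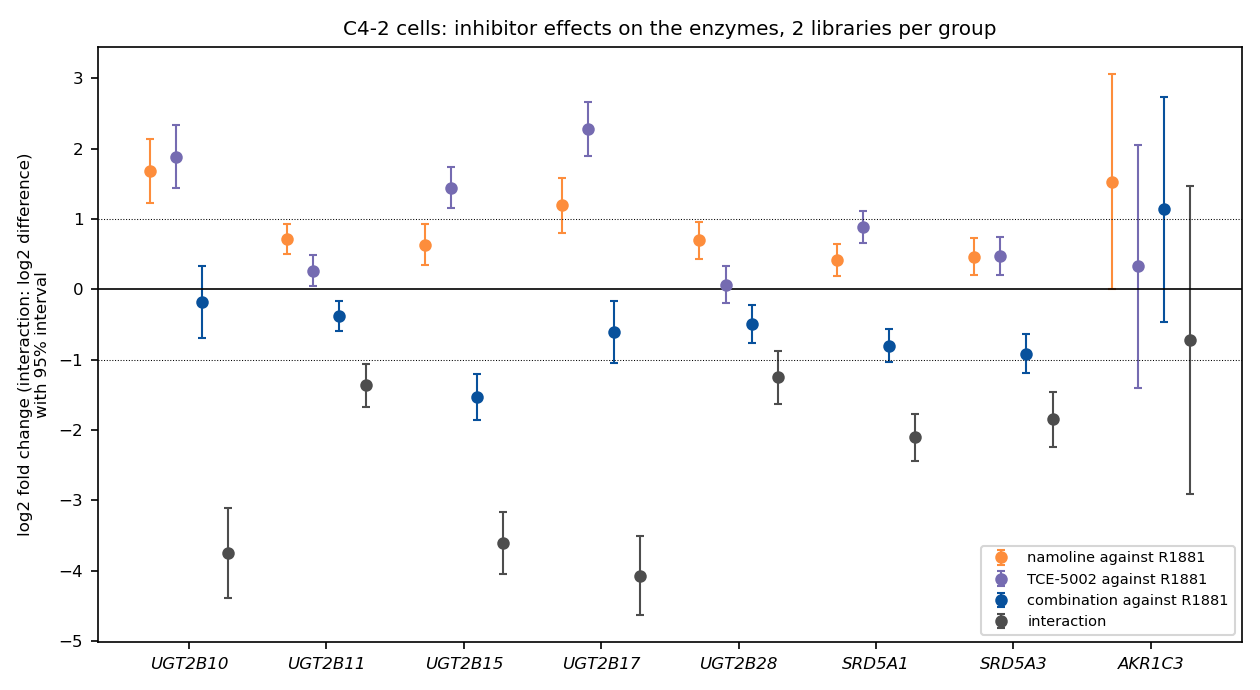
Effects in C4-2 on the 8 enzymes as log2 fold changes against R1881, for either inhibitor and for the combination, beside the interaction, with 95% intervals. The dotted lines mark 2-fold. For 7 enzymes the interaction lies below −1, from −1.25 for UGT2B28 to −4.07 for UGT2B17, while the AKR1C3 intervals are wide.

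For all enzymes but AKR1C3, the direct comparisons with each single inhibitor gave larger differences than those with R1881. They reuse the same libraries and equal the combination effect less the effect of the single inhibitor, so they are no separate support. Against namoline, the combination was called lower for 7 of 8 enzymes, with 14.7% of all genes called lower. The log2 fold changes were −2.16 ± 0.17 for UGT2B15, −1.87 ± 0.23 for UGT2B10, −1.80 ± 0.21 for UGT2B17, −1.38 ± 0.14 for SRD5A3, −1.22 ± 0.12 for SRD5A1, −1.19 ± 0.14 for UGT2B28 and −1.10 ± 0.11 for UGT2B11. Against TCE-5002, 5 of 8 were called lower, with 14.3% of all genes. UGT2B15 differed by −2.97 ± 0.17, UGT2B17 by −2.88 ± 0.21, UGT2B10 by −2.07 ± 0.23, SRD5A1 by −1.69 ± 0.12 and SRD5A3 by −1.39 ± 0.14. UGT2B11 fell by 0.65 ± 0.11 (adjusted p = 0.000186) and UGT2B28 fell by 0.56 ± 0.14 (adjusted p = 0.00275, and 0.0756 without combination replicate 2), both under 2-fold. AKR1C3 did not pass in either comparison (−0.39 ± 0.68 and 0.81 ± 0.77).

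The interaction, the combination effect beyond the sum of the single effects on the log2 scale, was called lower for 7 of the 8 enzymes, with 18.6% of all genes called lower. UGT2B17 stood at −4.07 ± 0.29 (adjusted p = 4.53e-08), UGT2B10 at −3.75 ± 0.33 (adjusted p = 3.31e-07) and UGT2B15 at −3.61 ± 0.22 (adjusted p = 1.53e-08). SRD5A1 stood at −2.11 ± 0.17, SRD5A3 at −1.85 ± 0.20, UGT2B11 at −1.36 ± 0.16 and UGT2B28 at −1.25 ± 0.19. AKR1C3 was −0.72 ± 1.12 (adjusted p = 0.613). The R1881, namoline and TCE-5002 libraries enter this contrast together with the combination, so it shares its data with the comparisons above.

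Per kilobase of gene, so that genes can be compared, UGT2B11 was the most abundant enzyme in C4-2 at 84.3 ± 0.63 CPM per kb with R1881 (SD, n = 2). UGT2B28 followed at 30.8 ± 0.21, UGT2B15 at 11.9 ± 1.01, SRD5A1 at 5.03 ± 0.13, SRD5A3 at 4.82 ± 0.020, UGT2B17 at 3.06 ± 0.32, UGT2B10 at 1.60 ± 0.075 and AKR1C3 at 0.0597 ± 0.055. The SRD5A1 and SRD5A3 levels were within 2 SDs of SRD5A1, and the other neighbours in this order were separate. UGT2B11 made up 63.4% and 64.7% of the summed UGT2B level with R1881, 63.5% and 63.0% with namoline, 53.0% and 55.9% with TCE-5002, and 67.8% and 69.8% with the combination. The UGT2B15 share was 9.51% and 8.51% with R1881 and 17.98% and 16.55% with TCE-5002, and it was 4.50% and 4.24% with the combination. UGT2B17 went from 2.49% and 2.16% to 8.48% and 7.35% with TCE-5002. TCE-5002 libraries thus held relatively more UGT2B15 and UGT2B17 than any other C4-2 group, and combination libraries the least UGT2B15.

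**Figure D3:**
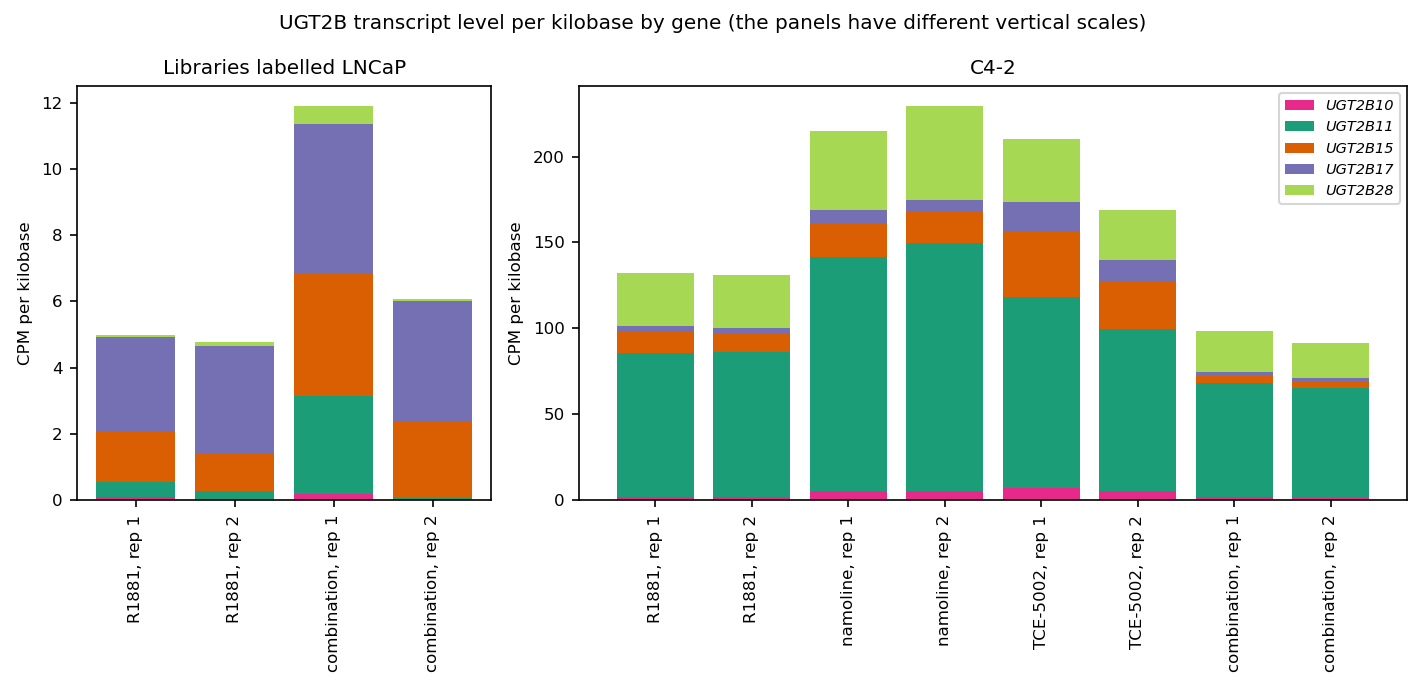
Summed UGT2B level in each library in CPM per kilobase, divided by gene, with the libraries labelled LNCaP on the left and C4-2 on the right on a larger scale. C4-2 totals ran from 91.5 to 230 CPM per kb and were made mostly of UGT2B11, while those of the libraries labelled LNCaP ran from 4.76 to 11.9 and were made mostly of UGT2B17 and UGT2B15.

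Since near-identical copies may exchange fragments, the UGT2B enzymes examined and the listed pseudogenes of the cluster (10 features) were also summed before the fit. UGT2B4 and UGT2B7 were not in this sum. The sum rose by 0.73 ± 0.12 with namoline (adjusted p = 0.000285) and by 0.46 ± 0.12 with TCE-5002 (adjusted p = 0.00775), and it fell by 0.47 ± 0.12 with the combination (adjusted p = 0.00428). Its interaction was −1.66 ± 0.17 (adjusted p = 1.45e-06). The sum does not depend on how counted fragments were split among the copies summed. The larger response of UGT2B10, UGT2B15 and UGT2B17 to TCE-5002 is not visible in a sum that UGT2B11 dominates.

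Across the 8 C4-2 libraries, which fall into 4 groups of 2 and share depth and scaling, the levels of most enzymes moved together. Pearson's r of log2 CPM was 0.99 for UGT2B15 with SRD5A1, 0.97 for UGT2B11 with UGT2B28, 0.95 for SRD5A1 with SRD5A3 and 0.94 for UGT2B15 with UGT2B17. It was lowest among the 7 expressed enzymes for UGT2B17 with UGT2B28, at 0.57. Among the 9524 genes searched, the closest to each enzyme were ADAMTS1, FAM216A and NETO1 for UGT2B10 (r from 0.986 to 0.992), TEX2, JPT2 and FECH for UGT2B11 (0.993 to 0.997), MGST2, PPFIA2 and CHRM3 for UGT2B15 (0.995 to 0.997) and APOO, UBAC1 and RFLNB for UGT2B17 (0.992 to 0.994). For UGT2B28 they were POP1, HMOX2 and RAD51AP1 (0.990 to 0.991), for SRD5A1 NAAA, LDLRAD3 and EGFR (0.996 to 0.997), for SRD5A3 FZD4, SERINC5 and ENDOD1 (0.995 to 0.998), and for AKR1C3 KIAA1586, AP3S2 and HDAC2 (0.850 to 0.896). With only 4 conditions behind 8 libraries, many genes reach such values.

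Reference androgen targets were measured beside these enzymes in C4-2. KLK3, which encodes PSA, was called higher with TCE-5002 (1.04 ± 0.15) and lower with the combination (−2.19 ± 0.16), and did not pass with namoline (−0.19 ± 0.15). FKBP5, an androgen-induced chaperone, rose by 0.58 ± 0.15 with namoline and fell by 0.89 ± 0.15 with the combination. The summed level of the 10 luminal markers went from 2816–2870 CPM with R1881 to 3679–4025 with namoline, 5140–5241 with TCE-5002 and 1736–1758 with the combination. The part of this luminal program in the enzyme changes was not tested.

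Among other genes of glucuronidation (14 found by name, 4 of them tested in C4-2), UGDH, which makes the glucuronic acid donor, measured 120 and 118 CPM with R1881, 274 and 284 with namoline, 266 and 186 with TCE-5002, and 192 and 210 with the combination. It was called higher with namoline (1.21 ± 0.14) and rose by 0.90 ± 0.14 with TCE-5002. Unlike the UGT2B enzymes it was also above R1881 with the combination, by 0.74 ± 0.14 (adjusted p = 0.000463). UGT2B4, chosen after its values were seen, fell by 1.90 ± 0.25 with the combination, from 6.69 and 5.89 CPM to 1.49 and 1.92. UGT1A1, also chosen after its values were seen, had 0 and 1 counts with R1881 and 27 and 32 with namoline.

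Of 3 tested UGT2B pseudogenes, chosen for naming after their values were seen, UGT2B24P (1.51) and UGT2B25P (1.35) were called higher with namoline and UGT2B27P was called lower with the combination (−1.59). These lie inside the annotated spans of UGT2B28 and UGT2B11. Among all genes tested, 5.17% were called higher with namoline and 12.8% were called lower with the combination.

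Of 6 tested genes among the other reductases and aldo-keto reductases, 2 were called higher and 2 lower with namoline. With TCE-5002 3 were called lower, and with the combination 3 were called higher and 2 lower. Among all 17702 genes tested, 2134 were called with namoline (42.9% of them higher), 2096 with TCE-5002 (42.6% higher) and 3834 with the combination (41.0% higher). None of the called genes among these 6 reached 10 CPM in C4-2, and all but AKR1B1 are named after their values were seen. AKR1D1, which reduces steroid double bonds in liver, was called lower with namoline (−1.58 ± 0.23), TCE-5002 (−1.52 ± 0.23) and the combination (−2.89 ± 0.27), from 7.16 and 6.65 CPM with R1881. AKR1C1 and AKR1C2, which inactivate progesterone and dihydrotestosterone and are close relatives of AKR1C3, were called higher with the combination (1.86 ± 0.33 and 1.72 ± 0.38), at 1.94 to 3.85 CPM, and AKR1C2 also with namoline (1.51 ± 0.39). AKR1B10 went from 0 and 1 counts with R1881 to 16 and 23 with namoline and 26 and 31 with the combination. AKR1B1 was called lower with TCE-5002 (−1.69 ± 0.58), from 0.982 and 0.704 CPM to 0.420 and 0.107. SRD5A2, the reductase of normal prostate, had at most 1.28 CPM in C4-2 and was called lower with all 3 treatments.

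Of 12 tested hydroxysteroid dehydrogenases, the combination was called higher for 2 and lower for 3 in C4-2. Of all 17702 genes tested, 3834 were called with the combination, 41.0% of them higher. HSD17B7, better known for cholesterol synthesis, rose by 1.55 ± 0.13, from 25.9 and 22.5 CPM to 74.2 and 68.5, and HSD17B14 rose by 2.28 ± 0.20, from 5.43 and 5.57 CPM to 25.5 and 28.3. HSD17B11, which oxidises androstanediol, was called lower (−1.01 ± 0.20), as were HSD17B6 (−1.17) and HSD3B7 (−1.26), the last 2 named after their values were seen. HSD11B2, which inactivates cortisol, was called higher with namoline (1.20 ± 0.16). HSD17B3, which makes testosterone and was also named after its values were seen, was called lower with namoline (−2.58 ± 0.63) and TCE-5002 (−2.33 ± 0.60), from 31 and 28 counts with R1881. Single inhibitors left HSD17B7 and HSD17B14 with differences between −0.15 and 0.09 that did not pass.

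Among 6 tested steroidogenic cytochromes and partners, CYP11A1, which begins steroid synthesis from cholesterol, was called higher with namoline (2.30 ± 0.26), from 2.90 and 2.11 CPM to 9.82 and 15.6. CYB5A, a cofactor of androgen synthesis, was called higher with TCE-5002 (1.09 ± 0.12) and fell by 0.92 ± 0.12 with the combination. FDXR, which passes electrons to mitochondrial cytochromes, was called higher with the combination (2.72 ± 0.16). Of 5 tested genes of steroid sulfation and uptake, 2 were higher with namoline and 1 was higher with TCE-5002 at adjusted p under 0.05. With the combination 3 were lower, and all these changes were less than 2-fold. The shares of all genes by the same rule were 18.7%, 19.9% and 25.6%. Of 11 genes of dolichol and N-glycan precursor synthesis, the pathway that SRD5A3 serves, ALG14 was the only gene called against R1881 in C4-2, and was lower with the combination (from 16.3 and 16.6 CPM to 8.31 and 8.25).

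The libraries labelled LNCaP held far less UGT2B transcript. With R1881, UGT2B11 measured 1.09 and 0.686 CPM, UGT2B28 0.189 and 0.320, UGT2B15 3.32 and 2.51, and UGT2B10 0.189 and 0 (4 and 0 counts). All were below the C4-2 libraries without overlap. Against them C4-2 was called higher for 4 of 7 tested enzymes, with 24.3% of all 19763 genes called higher. The log2 differences were 8.30 ± 0.29 for UGT2B28, 7.93 ± 0.43 for UGT2B11, 5.01 ± 0.62 for UGT2B10 and 3.22 ± 0.20 for UGT2B15. UGT2B28 and UGT2B10 passed the filter on low counts only through C4-2, where they are high, so their values are descriptions. Of the 5 enzymes also tested in the libraries labelled LNCaP alone, UGT2B11 and UGT2B15 were called higher in C4-2. The UGT2B10 value was 4.01 without R1881 replicate 2 labelled LNCaP, and without replicate 1, which left 0 counts, the fitted 8.84 depends on the prior count and is no bound. UGT2B17 measured 5.97 and 6.67 CPM and was not distinguished between the lines (0.07 ± 0.19, 95% interval −0.31 to 0.45). SRD5A1 was 0.68 ± 0.11 higher in C4-2 (adjusted p = 4.72e-06), and SRD5A3 differed by −0.20 ± 0.12 (adjusted p = 0.126). AKR1C3 had 1 count over the 4 libraries labelled LNCaP. The difference between the lines cannot be told apart from the mesenchymal and neuroendocrine marker difference given above, and luminal markers summed to 891–965 CPM in the R1881 libraries labelled LNCaP.

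In the libraries labelled LNCaP, the combination was called higher for 2 of 5 tested enzymes, with 7.44% of all 17565 genes called higher, and 3 were higher by adjusted p alone, with 28% of all genes. UGT2B15 measured 8.07 and 5.01 CPM with the combination and rose by 1.22 ± 0.26 (adjusted p = 0.000184). Without combination replicate 1 its log2 fold change was 0.83 (adjusted p = 0.0137), under 2-fold. UGT2B17 measured 9.46 and 7.59 CPM and rose by 0.49 ± 0.20 (adjusted p = 0.0389), with adjusted p = 0.262 without that replicate and 0.211 and 0.0613 without R1881 replicate 1 or 2. SRD5A1 (25.3 and 25.8 CPM, against 23.9 and 26.4 with R1881) and SRD5A3 (27.6 and 31.2, against 25.8 and 24.9) did not pass (0.08 ± 0.13 and 0.28 ± 0.13), although SRD5A3 passed at 0.35 without combination replicate 1 (adjusted p = 0.0260).

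UGT2B11 in the libraries labelled LNCaP rested on a single library. Combination replicate 1 held 120 counts (7.28 CPM) and replicate 2 held 2 (0.103 CPM), on either side of the R1881 libraries with 23 and 15. The fit gave 2.08 ± 0.65 (adjusted p = 0.00689), and −2.98 (adjusted p = 0.0132) without replicate 1. The same library held 23 UGT2B28 counts against 3, and 6 UGT2B10 counts against 1, too few to be tested there. Another 20 genes, chosen after the data were seen, had a mean of at least 20 CPM in every C4-2 group. Their means over the R1881 libraries labelled LNCaP were at most 1 CPM. Of these, 10 were higher in replicate 1 than in replicate 2. The 20 genes summed to 0.846% of the C4-2 R1881 level in replicate 1 and 0.637% in replicate 2. In the R1881 libraries labelled LNCaP they summed to 0.941% and 0.720%. For UGT2B11 the 2 replicates thus disagreed in direction, and no direction is given.

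**Figure D4:**
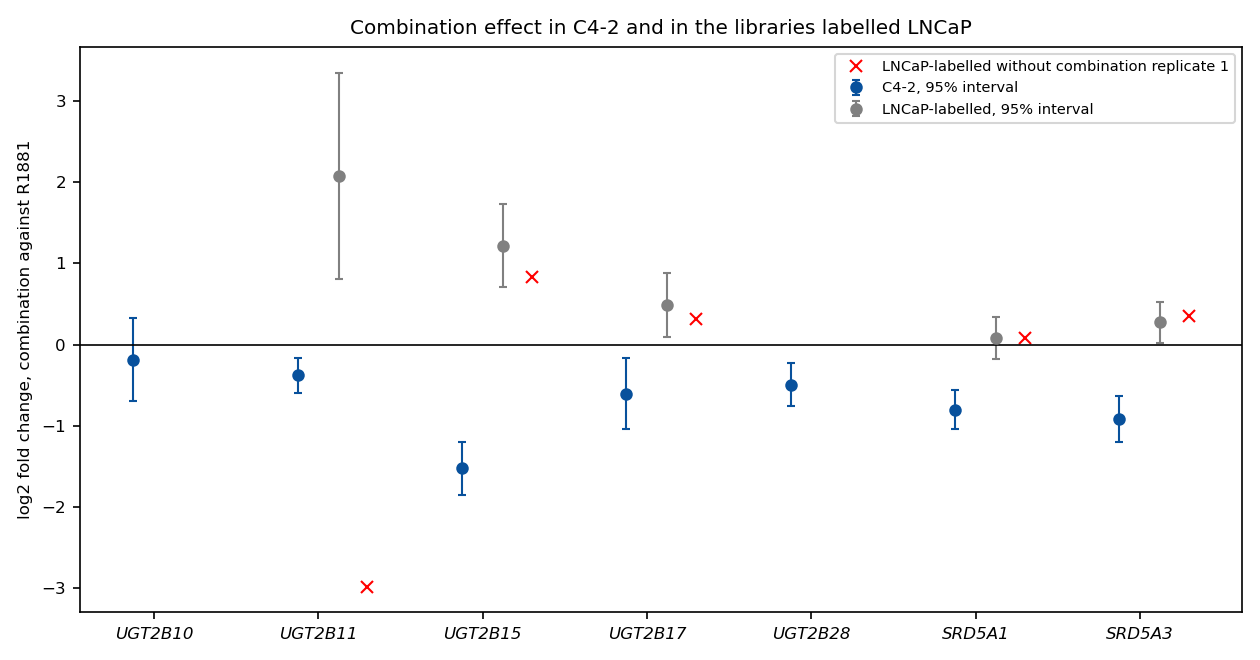
Combination effect (log2 fold change against R1881, with 95% intervals) in C4-2, in the set labelled LNCaP, and in that set without the combination library whose header lacks TCE-5002 (crosses). UGT2B10 and UGT2B28 had too few counts to be tested in the libraries labelled LNCaP. UGT2B15 lies at −1.53 in C4-2 and at 1.22, or 0.83 without that library, in the other set.

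The combination effect itself was compared between the lines in a single fit. It was called lower in C4-2 for 5 of 7 tested enzymes, with 13.9% of all genes called lower. UGT2B28 and UGT2B10 entered this fit only through their C4-2 counts, so their values are descriptions, and 4 of the 5 enzymes testable in both sets were called. The difference was −2.79 ± 0.28 for UGT2B15 (adjusted p = 2.51e-08), −1.24 ± 0.17 for SRD5A3 (adjusted p = 1.80e-06) and −1.15 ± 0.28 for UGT2B17 (adjusted p = 0.00173). SRD5A1 differed by −0.93 ± 0.16 (adjusted p = 2.82e-05), just under 2-fold. UGT2B17 was under 2-fold without the doubtful combination library (−0.99, adjusted p = 0.00489), without R1881 replicate 1 labelled LNCaP (−0.96), without C4-2 combination replicate 1 (−0.95) and with the GC correction (−0.87). The values for UGT2B11 (−2.45 ± 0.74) and UGT2B28 (−2.09 ± 0.68) became 2.52 and 0.091 without that library, so they carry no direction. UGT2B10 did not pass (−1.32 ± 1.13). KLK3, by contrast, was called lower with the combination in both sets, at −2.19 ± 0.16 for C4-2 and −1.75 ± 0.13 for the set labelled LNCaP (−2.07 without the doubtful library). The plot of the combination effect by line shows UGT2B15 on opposite sides of 0 in the 2 sets. The estimates of UGT2B17, SRD5A1 and SRD5A3 also lay on opposite sides. With DESeq2, UGT2B17 passed in neither set (adjusted p = 0.0537 in C4-2 and 0.113 in the set labelled LNCaP). SRD5A1 and SRD5A3 did not pass over all libraries labelled LNCaP.

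Of the wider pathway in the libraries labelled LNCaP, 4 of 12 tested hydroxysteroid dehydrogenases were called higher, both with and without combination replicate 1. These included HSD17B7 (1.36 ± 0.16) and HSD17B14 (1.39 ± 0.27), also called higher in C4-2, and HSD17B6 (1.19 ± 0.17). Without that replicate the 3 stood at 1.33, 1.48 and 1.25. Over the full set labelled LNCaP, 7.44% of all genes tested were called higher. HSD17B11, called lower in C4-2, was called higher here (1.24 ± 0.13, and 1.39 without that replicate), from 21.1 and 21.1 CPM to 42.2 and 53.5. SLC35D1, a transporter of nucleotide sugars that include the glucuronic acid donor, was called lower (−1.07 ± 0.11, and −1.02 without that replicate), from 98.6 and 96.7 CPM to 42.4 and 46.6, and was at most 0.588 CPM in C4-2. ALG5, which makes the glucose donor for N-glycan precursors, was called higher (1.05 ± 0.11, and 1.14 without that replicate). SULT2B1, a steroid sulfotransferase, was called higher at 1.28 ± 0.43 but did not pass without it (0.76, adjusted p = 0.255).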

How the data were processed

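RNA was sequenced by the authors as polyadenylated, paired-end libraries, filtered by base quality, trimmed (Trim Galore, cutadapt) and aligned by STAR to GRCh38. The deposited counts are whole numbers of fragments per gene, made per the file headers with featureCounts 1.5.0-p1 and Ensembl 83 annotation, with no strand option and without multi-mapping or ambiguous fragments. Groups came from library titles. A symbol was found for 56558 of 60675 genes. Counts were tested here with edgeR 4.0.16 (limma 3.58.1, R 4.3.3): filterByExpr, TMM, quasi-likelihood F test, Benjamini-Hochberg adjustment over all genes tested. C4-2 comparisons used all 8 C4-2 libraries, the libraries labelled LNCaP were fitted alone, and the lines were compared over the 8 libraries with R1881 or the combination. A gene was called where its adjusted p was under 0.05 and its change at least 2-fold. SEs were derived by dividing the size of the log2 change by the root of F, and 95% intervals are approximate, with a normal multiplier. With 2 libraries per group they are too narrow. For AKR1C3 with namoline the interval excludes 0, although the unadjusted p of the F test was 0.0691. The steps were tested on simulated data. The alternatives were RLE scaling, no filter, DESeq2 1.42.0, a replicate block, a correction for GC content, smaller fits and each library left out. The enzymes and gene lists were chosen with earlier results of these data known; from the wider lists, called genes of at least 10 CPM, at most 4 per list, were to be named. UGT1A3 had no match. Sequences were compared with Biopython from GENCODE 29 and RefSeq (GRCh38.p14). Some context genes are not reported here.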

Additional observations from a re-analysis of the deposited data

Results flagged for a closer look

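For 5 enzymes the effect of the combination against R1881 differed between C4-2 and the libraries labelled LNCaP by a test of the difference itself (edgeR, C4-2 minus LNCaP-labelled, log2 scale): UGT2B15 (−2.79), UGT2B11 (−2.45), UGT2B28 (−2.09), SRD5A3 (−1.24) and UGT2B17 (−1.15). UGT2B15 and SRD5A3 kept this call without any single library. For UGT2B11 and UGT2B28 the difference was 2.52 and 0.091 without the combination library whose header does not name TCE-5002. The call was also lost for UGT2B28 without R1881 replicate 1 labelled LNCaP (−1.66) and for UGT2B11 without R1881 replicate 2 (−2.06). UGT2B28 passed the filter on low counts only through C4-2 and had too few counts to be tested in the libraries labelled LNCaP alone. UGT2B17 was under 2-fold, between −0.99 and −0.95, without any of 3 libraries, and also with the GC correction (−0.87) and with the replicate block and GC correction (−0.86). The line and the markers that separate the 2 sets cannot be told apart.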

How the results depend on the processing

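In C4-2 the count of enzymes called at 2-fold was the same under every alternative run for each comparison against R1881, against the single inhibitors and for the interaction, and no count of all genes called moved by over 1.5 times in any comparison. The number raised by namoline at adjusted p alone was 4 to 7 with each library left out. In the libraries labelled LNCaP the 2 enzymes called became 1 with DESeq2, 0 with the GC correction, and 1 to 3 with each library left out; the number higher at adjusted p alone went from 3 to 1 with DESeq2 and to 1 with the GC correction. UGT2B11 there ran from −2.98 without combination replicate 1 to 3.10 without combination replicate 2. The difference between the lines was called for 3 enzymes in place of 5 with DESeq2, for 4 with the GC correction, with or without a replicate block, and for 3 to 5 with each library left out; UGT2B11 ran from −3.54 to 2.52 and UGT2B28 from −3.04 to 0.091, reversed without combination replicate 1 labelled LNCaP. The GC correction and the absence of a filter moved the median interaction of all genes from −0.01 to 0.12.

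The study names no pairing by replicate number. Correlations of replicate differences between groups ran from −0.12 to 0.14, highest between the C4-2 TCE-5002 and namoline groups. Such values do not exclude a pairing. With a replicate block, 1 enzyme was called in the libraries labelled LNCaP and 1 was higher at adjusted p alone; with the replicate block and GC correction these were 0 and 1. The block changed no other count of enzymes called at 2-fold, and with it UGT2B11 passed for TCE-5002 in C4-2 (adjusted p = 0.0439, and 0.000255 with the block and GC correction). With 2 libraries per group, changes under 2-fold and genes under a few CPM, AKR1C3 above all, are measured with little precision.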
